A study of Arabidopsis thaliana with 24 samples.

Results

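The genotype by estradiol interaction under IAA asks, gene by gene, whether estradiol moved a transcript differently in an Arabidopsis line that carries an inducible artificial microRNA against TOR than in the wild type, while lateral roots were being induced with auxin. It was computed as the estradiol effect in amiR-TOR minus the estradiol effect in Col-0, and rests on 12 of the 24 root libraries of the study, 3 in each of 4 groups chosen by their titles. The groups are Col-0_IAA (wild type, no estradiol), Col-0_IAA_Es (wild type, estradiol), amiR-TOR_IAA (the inducible UB10pro>>amiR-TOR line, no estradiol) and amiR-TOR_IAA_Es (the same line, estradiol). Seedlings of every group were 7 d old and received 10 µM NPA, an inhibitor of polar auxin transport, for 24 h. They then spent 24 h on 10 µM NPA together with 10 µM estradiol or the solvent DMSO, and finally 6 h on 10 µM IAA, the natural auxin, again with estradiol or solvent. Each library pooled about 200 segments of the lower part of the root. The labels do not say how many independent transgenic lines or plates stand behind the replicates, so p-values measure the spread between these libraries. The other 12 libraries stayed on NPA and give the same contrast without added auxin.

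TOR is a protein kinase that promotes growth, ribosome production and translation when sugar, nutrients and auxin are available. In roots, auxin sets off lateral root founding in pericycle cells next to the xylem, through Aux/IAA repressors, ARF factors and their LBD and PLETHORA targets. An artificial microRNA is made from a natural microRNA precursor whose mature part has been exchanged for a designed sequence. In Arabidopsis the MIR319a precursor is a common scaffold for this, though the labels do not name the scaffold of this line. Estradiol-inducible systems use a synthetic transcription factor that enters the nucleus on binding estradiol, so the wild type with estradiol is the control for the hormone itself.

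The sequence of the MIR319a precursor is given because it is a common scaffold and reads at this locus separated the induced libraries from the others. Whether these reads came from the construct was not tested. The RefSeq gene MIR319a (AT4G23713) lies at chr4:12352956-12353131 (plus strand) of TAIR10.1. The mature part is in capitals in the precursor. In the mature miRNA, the seed (bases 2 to 8) is in capitals.
MIR319a precursor: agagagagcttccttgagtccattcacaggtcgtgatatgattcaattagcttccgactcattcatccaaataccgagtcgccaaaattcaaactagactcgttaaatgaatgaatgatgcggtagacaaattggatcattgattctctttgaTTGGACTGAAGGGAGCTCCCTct
miR319a: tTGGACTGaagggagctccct
Natural miR319 guides cleavage of TCP transcripts of the CINCINNATA class. The closest match to the complement of miR319a in the TCP4 transcript lies in a coding exon at chr3:5063300-5063320 (plus strand), and that in MYB33, a related target, at chr5:1839578-1839598 (plus strand). Capitals mark bases that pair with miR319a by Watson-Crick rules.
TCP4 site: gaGGgGtcCCCTTCAGTCCAg
MYB33 site: ctGGAGCTCCCTTCAtTCCAA

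Levels are given in CPM, that is, gene counts scaled to the size of the library. TOR (AT1G50030) stood at 46.8, 65.4 and 58.7 CPM in replicates 1, 2 and 3 of Col-0_IAA, at 77.2, 69.8 and 61.5 in Col-0_IAA_Es, at 62.4, 57.6 and 70.1 in amiR-TOR_IAA and at 24.6, 27.9 and 26.8 in amiR-TOR_IAA_Es. The 3 libraries of the induced line lay below the other 9, and without estradiol the line did not stand apart from Col-0. The interaction for TOR was -1.55 ± 0.22 (adjusted p = 1.3e-04) on the log2 scale, where the value after ± is the standard error and a gene is called when its Benjamini-Hochberg adjusted p over all tested genes is under 0.05. MIR319a reads were nearly absent from the 9 other libraries, at 0 to 0.612 CPM, and reached 1003, 850.1 and 616 CPM in amiR-TOR_IAA_Es. Its interaction was 12.43 ± 1.31 (adjusted p = 1.6e-05). MIR319b, another gene of the family, stood at 1.36, 1.08 and 1.01 CPM in amiR-TOR_IAA_Es and 1.305 to 3.29 CPM in the other 9 libraries, and its interaction of -1.23 ± 0.43 (adjusted p = 0.072) was not called. None of 7 miR319 targets tested, TCP2, TCP3, TCP4, TCP10, TCP24, MYB33 and MYB65, was called. Over the list of these 7 with MIR319a and MIR319b, 7 of 9 interactions were negative, the lowest at -1.94. The negative ones include that of MIR319b, which is not a target. The list median was -0.39, beside -0.02 over all tested genes. At an unadjusted p under 0.05, 5 of the 9 passed in edgeR's quasi-likelihood test, and DESeq2 called 1 higher and 1 lower. The estradiol effect in amiR-TOR was called lower for 2 of the 9, beside 9.9% of all tested genes. For TCP4 the interaction was -0.59 ± 0.40 (adjusted p = 0.39), and for MYB33 it was -0.39 ± 0.15 (adjusted p = 0.1).

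**Figure D1:**
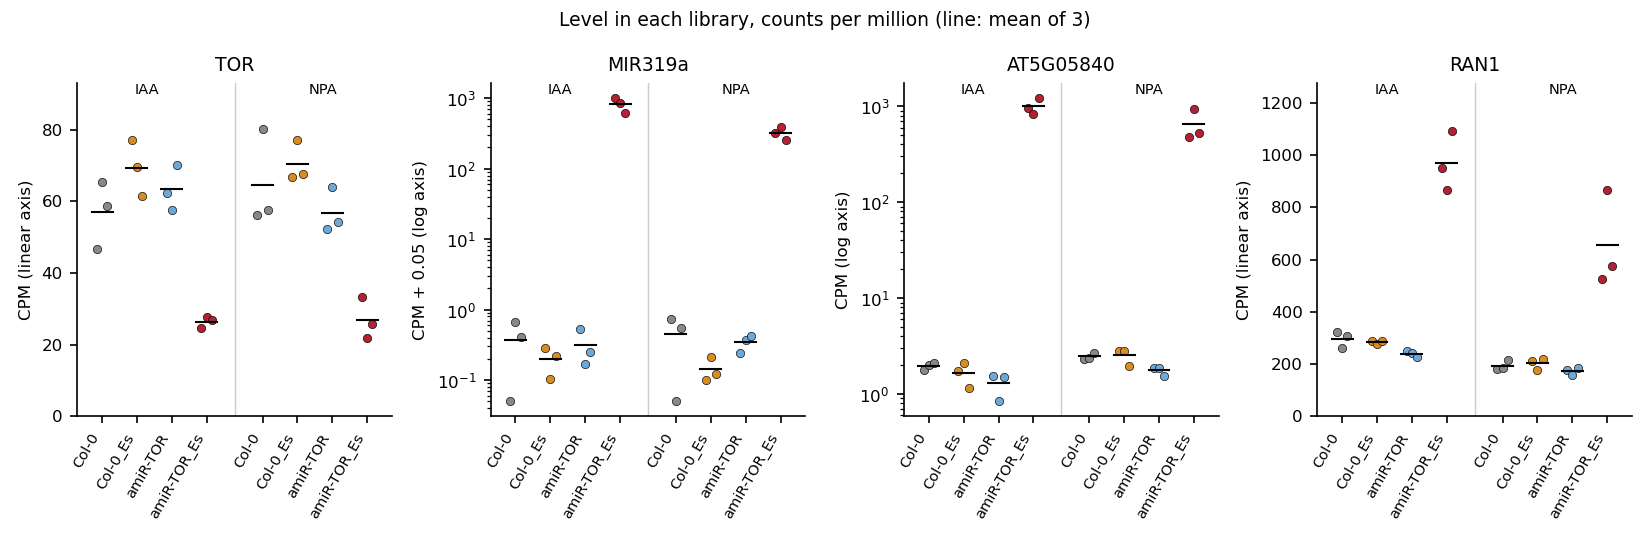
Level of TOR, MIR319a, AT5G05840 and RAN1 in each of the 24 libraries, in CPM, with a line at the mean of each group of 3. The axis is linear for TOR and RAN1 and logarithmic for MIR319a (with 0.05 added) and AT5G05840, and the libraries of amiR-TOR with estradiol stand apart from all others for all 4 transcripts under both IAA and NPA.

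Of 21290 genes tested, 1952 were called in the interaction under IAA, which is 9.17%. The interaction was positive (called higher) for 946 genes, or 4.44%, and negative (called lower) for 1006, or 4.73%. Among these, 282 and 462 had a log2 interaction of at least 1 in size. The median over all tested genes was -0.02.

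The induced line stood apart from the other groups for most called genes. The calls came from these same libraries, so a higher share than among all tested genes is built in and is no separate support. The 3 amiR-TOR_IAA_Es libraries all lay above the other 9 IAA libraries for 654 of the 946 genes called higher, beside 9.57% of all tested genes. They all lay below the other 9 for 622 of the 1006 genes called lower, beside 9.71% of all tested genes. Col-0_IAA_Es stood apart for fewer genes, below the rest for 153 of the genes called higher (2.11% of all tested) and above the rest for 122 of those called lower (1.77% of all tested). Side by side, the genotypes differed for 2688 genes without estradiol (12.6%) and for 7921 with it (37.2%). The estradiol effects in the genotypes share no library. Estradiol was called for 4021 genes in amiR-TOR (18.9%) and for 218 in Col-0 (1.02%). The lists shared 65 genes, 1.62% of the first and 29.8% of the second, and 39 of these moved the same way in both genotypes. The Col-0 count varied with the libraries used. It was 746 without replicate 1 of Col-0_IAA_Es, 58 without replicate 2, 95 without replicate 3, 78 and 77 without replicates 1 and 3 of Col-0_IAA, and 3 without the libraries of high unmapped share (over 20% of reads). The amiR-TOR count was 2419 without replicate 3 of amiR-TOR_IAA and 2370 without replicate 3 of amiR-TOR_IAA_Es. The low count in Col-0 was not seen under NPA. There estradiol was called for 4616 of 21290 tested genes in Col-0 and for 7027 in amiR-TOR.

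**Figure D2:**
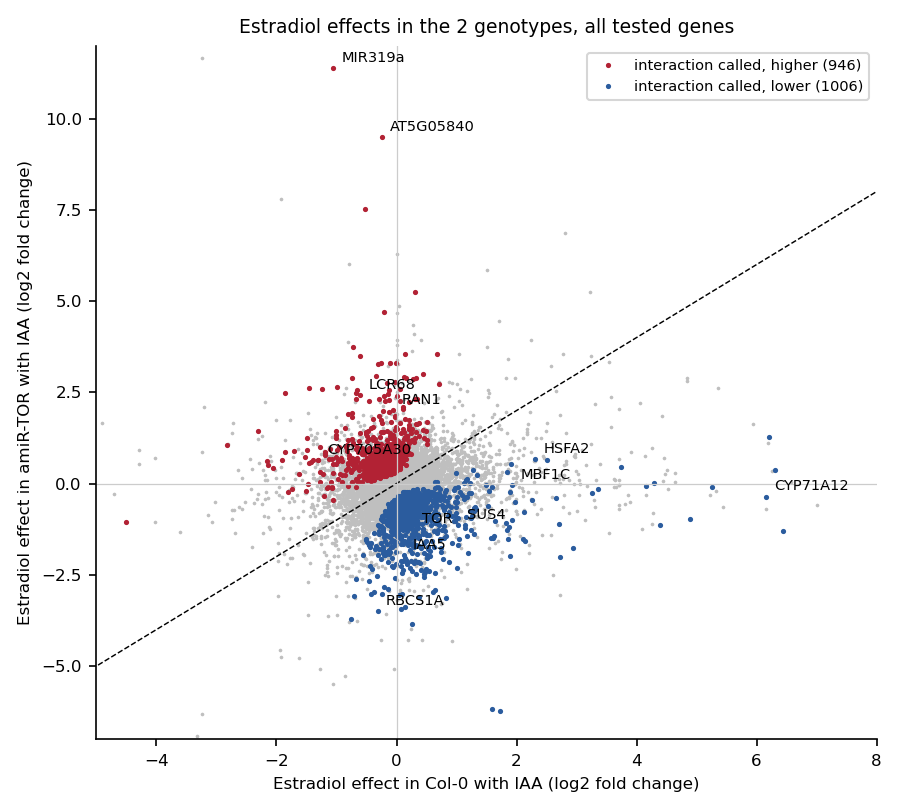
Estradiol effect with IAA in Col-0 (x axis) and in amiR-TOR (y axis), both as log2 fold changes, for the tested genes within the axis limits, with genes called higher (946 in all) in red and lower (1006 in all) in blue. Points on the dashed line have equal effects in both genotypes, and MIR319a and AT5G05840 lie at the top, far above it, while HSFA2 and MBF1C lie to the right.

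Sequencing depth was 8589833 to 34296400 gene counts in the 12 libraries. In 4 of them over 20% of reads were unmapped: replicate 1 of Col-0_IAA (47.6%), replicates 2 and 3 of Col-0_IAA_Es (35.2% and 31.7%) and replicate 1 of amiR-TOR_IAA_Es (25.8%). Without the libraries of high unmapped share, 1071 genes were called, of which 805 were among the 1952. That fit leaves 1 library in Col-0_IAA_Es, which is assumed to vary like the other groups. Without replicate 3 of amiR-TOR_IAA the count was 1135, and without replicate 3 of amiR-TOR_IAA_Es it was 1236.

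By smallest p among positive interactions, the leading transcript was AT5G05840, which encodes a protein with a DUF620 domain of unknown function. It stood at 0.842 to 2.12 CPM in the 9 other libraries and at 961, 836 and 1214 CPM in amiR-TOR_IAA_Es, an interaction of 9.73 ± 0.42 (adjusted p = 2.1e-12). Its neighbours on the chromosome, AT5G05830 and PIRL1 (AT5G05850), were looked at after its value was seen and had interactions of 0.59 ± 0.24 (adjusted p = 0.12) and -0.54 ± 0.29 (adjusted p = 0.24). The same was done for AT5G59845, a gibberellin-regulated family gene at 0.154 to 1.66 CPM in the 9 other libraries and 148, 102 and 138 in amiR-TOR_IAA_Es (interaction 8.05 ± 1.09, adjusted p = 2.8e-04). Here the neighbouring small GTPase gene AT5G59840 was called too, at 2.08 ± 0.26.

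A pair of further transcripts was also picked after their values were seen for being close to absent from the other 9 libraries. AT1G56710, a pectin lyase-like gene, had at most 5 reads in each of the 9 other libraries and 2001, 2123 and 6610 reads in amiR-TOR_IAA_Es. AT1G71470, of unknown function, had no read in amiR-TOR_IAA and 370, 294 and 870 reads with estradiol, which is at least 282-fold higher in CPM against a floor of 3 counts over the group. Neither was called in the interaction (adjusted p = 0.21 and 0.34).

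Among the other 14 top genes with positive interactions, AT1G63530, whose function is unknown, stood at 8.52 to 13.4 CPM in amiR-TOR_IAA and at 93.3 to 113 CPM in amiR-TOR_IAA_Es and had an interaction of 3.57 ± 0.27 (adjusted p = 6.8e-08). AT1G48750, which encodes a small lipid-transfer-like protein, stood at 21.96 to 33.8 CPM and at 171 to 216 CPM in the same order, with an interaction of 2.78 ± 0.23 (adjusted p = 1.7e-07). LCR68, a small cysteine-rich defensin-like protein, stood at 242 to 399 CPM and at 1488 to 1816 CPM, while Col-0 had 217 to 254 CPM without estradiol and 134 to 169.8 with it, an interaction of 3.02 ± 0.26 (adjusted p = 2.6e-07). For each of these transcripts the 3 induced libraries lay above the other 9.

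ADF6, an actin-depolymerising factor, and ELF5A-3, a member of the translation factor eIF5A family, had smaller and tighter interactions of 1.60 ± 0.18 (adjusted p = 1.0e-05) and 1.34 ± 0.16 (adjusted p = 3.7e-05). AT5G57010 (calmodulin-binding family), AT2G43870 (pectin lyase-like), AT5G57500 (galactosyltransferase family), AT1G52060 (mannose-binding lectin family) and AT2G40113 (pollen Ole e 1 allergen and extensin family) lay between 1.56 and 2.53. CYP705A30, a cytochrome P450, differed in kind from these. It fell with estradiol in Col-0, where it had 11.6 to 17.7 CPM without and 4.96 to 6.58 CPM with the hormone. It rose in amiR-TOR, with 5.12 to 7.82 CPM without and 8.601 to 9.84 CPM with it, and the interaction was 1.95 ± 0.21 (adjusted p = 1.0e-05).

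RAN1 and a Mog1-like gene, both of nuclear import and export, were among the 15 leading positive interactions, and a list of 23 transport genes that includes this pair was then drawn up with these values known. Ran is the small GTPase whose gradient across the nuclear envelope drives import and export, Mog1 and RanBP1 proteins act on Ran itself, NTF2 returns Ran to the nucleus, importin alpha carries cargo in and exportin 1 carries cargo out. RAN1 (AT5G20010) stood at 323, 262 and 309.5 CPM in Col-0_IAA, 289.8, 278 and 289.8 in Col-0_IAA_Es, 249, 242 and 227 in amiR-TOR_IAA and 952, 866 and 1093 in amiR-TOR_IAA_Es. All induced libraries exceeded all others, and the interaction was 2.08 ± 0.21 (adjusted p = 2.3e-06). The Mog1-like Ran release factor AT1G69680 stood at 51.9 to 67.6 CPM in amiR-TOR_IAA_Es and 9.02 to 14.03 CPM in the other 9 libraries, an interaction of 2.3998 ± 0.22 (adjusted p = 9.0e-07).

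Of the 23, chosen with values known, 9 were called higher (4.44% of all tested genes) and 0 lower (4.73%), with a list median of 0.23. Besides the pair above, these were RAN2 (0.91 ± 0.19), NTF2B (1.11 ± 0.16), exportin XPO1B (1.31 ± 0.21), RANBP1a (0.51 ± 0.14), the nucleoporin NUP98B (1.55 ± 0.21), and the importins IMPA-1 (0.44 ± 0.14) and IMPA-2 (0.62 ± 0.14). Paralogs with the same role were not called: RAN3 had 0.20 ± 0.18 (adjusted p = 0.54), NTF2A 0.38 ± 0.15 (adjusted p = 0.12), XPO1A 0.51 ± 0.17 (adjusted p = 0.058) and NUP98A -0.05 ± 0.12 (adjusted p = 0.84). RAN1 and RAN2 are close neighbours of similar sequence, and multimapping reads were not counted, so the split between them is uncertain. Without the libraries of high unmapped share, 5 of the 23 were called.

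Among the 15 leading negative interactions, AT2G01900, a DNase I-like protein, fell with estradiol in amiR-TOR, to 2.88 to 3.53 CPM, below the 9.26 to 17.1 CPM of the other 9 libraries, and its interaction was -2.17 ± 0.23 (adjusted p = 7.6e-06). SR45a, an RNA-binding protein of the SR splicing family, rose with estradiol in Col-0, with 72.6 to 80.1 CPM without and 127 to 159 CPM with it. It fell in amiR-TOR, with 109.9 to 114 CPM without and 68.01 to 74.2 CPM with it, and the interaction was -1.56 ± 0.17 (adjusted p = 1.0e-05). PRR7, a repressor in the circadian clock, had -1.31 ± 0.17 (adjusted p = 5.4e-05). It stood at 58.6 to 69.1 CPM in amiR-TOR_IAA_Es and at 107 to 159 in the other 9 libraries.

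MLO7 (a seven-transmembrane MLO protein), AT1G53780 (a 26S proteasome regulatory ATPase), AT4G15160 (lipid-transfer-like), AT2G35585, AT1G11700 (DUF584) and PIP5K9 (a phosphatidylinositol phosphate kinase) ranged from -1.82 to -0.97. In each of these 6 the induced libraries lay below the other 9. AT2G19310, an HSP20-like chaperone gene, had -1.25 ± 0.17 (adjusted p = 1.2e-04).

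Lateral root genes gave a mixed picture at 6 h of IAA. Of 29 tested, 2 were called higher (4.44% of all tested genes) and 4 lower (4.73%), and the list median was 0.03. The 4 fell to 2 without replicate 2 or 3 of Col-0_IAA, replicate 3 of Col-0_IAA_Es or replicate 3 of amiR-TOR_IAA. The early auxin targets LBD16, LBD18 and LBD29, which switch on lateral root founding, were not called, with interactions of 0.03 ± 0.21, -0.30 ± 0.18 and 0.02 ± 0.24. LBD33, which acts with LBD18 on cell cycle entry, was lower: 62.6, 62.2 and 65.8 CPM in amiR-TOR_IAA and 41.1, 45.6 and 19.1 in amiR-TOR_IAA_Es, against 72.7 to 86.1 CPM in Col-0_IAA and 76.9 to 98.96 CPM in Col-0_IAA_Es. Its interaction was -1.02 ± 0.31 (adjusted p = 0.042), and 12 of 20 alternatives no longer called it. PLT5, a PLETHORA factor of primordium outgrowth, had 12.9, 15.2 and 14.01 CPM in amiR-TOR_IAA_Es and 16.5 to 30.6 in the other libraries, an interaction of -0.97 ± 0.19 (adjusted p = 0.0031). The induced libraries lay below the rest. TMO6, a DOF factor downstream of MONOPTEROS, had -1.27 ± 0.26 (adjusted p = 0.0041), and EXPA17, an expansin of the tissue overlying primordia, -1.01 ± 0.28 (adjusted p = 0.028), a call lost in 6 of 20 alternatives.

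WOX11 and HAE went the other way. WOX11, a homeobox factor of adventitious root founding, stood at 21.3 to 25.4 CPM in Col-0_IAA, 25.4 to 41.5 in Col-0_IAA_Es, 38.4, 27.5 and 47.7 in amiR-TOR_IAA and 121, 119.9 and 131 in amiR-TOR_IAA_Es, and the interaction was 1.19 ± 0.33 (adjusted p = 0.028). HAE, a receptor kinase of cell separation, went from 8.6998, 11.9 and 8.52 to 23.9, 24.7 and 32.4 CPM, and its interaction was 1.40 ± 0.29 (adjusted p = 0.0045). Of the 20 alternatives, 8 no longer called WOX11 and 0 lost HAE. The induced libraries of both lay above the other 9.

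Of the early auxin response genes, few were called. Among 34 tested Aux/IAA, GH3 and related genes, 1 was called, beside 9.17% of all tested genes, and the median was -0.06. That gene was IAA5, an Aux/IAA repressor, at 28.5, 26.6 and 21.8 CPM in Col-0_IAA, 36.7, 25.2 and 21.6 in Col-0_IAA_Es, 37.6, 20.2 and 41.1 in amiR-TOR_IAA and 7.86, 9.39 and 8.28 in amiR-TOR_IAA_Es. Every induced library lay below the other 9, the interaction was -2.09 ± 0.29 (adjusted p = 1.2e-04), and all 20 alternatives kept the call. The related IAA19 (-0.17 ± 0.18, adjusted p = 0.61), GH3.3 (-0.09 ± 0.53, adjusted p = 0.94) and IAA6 (1.04 ± 0.50, adjusted p = 0.2), an auxin-inducible repressor, a conjugating enzyme and another repressor, were not called. The 250 bases before the IAA5 start, at chr1:5366498-5366747 (minus strand) of TAIR10.1, are shown because IAA5 was the called member. Capitals mark the auxin response element TGTCTC, which a search on both strands found in 10.7% of the windows of all tested genes and in 32.4% of those of the 34 auxin genes.
IAA5 upstream: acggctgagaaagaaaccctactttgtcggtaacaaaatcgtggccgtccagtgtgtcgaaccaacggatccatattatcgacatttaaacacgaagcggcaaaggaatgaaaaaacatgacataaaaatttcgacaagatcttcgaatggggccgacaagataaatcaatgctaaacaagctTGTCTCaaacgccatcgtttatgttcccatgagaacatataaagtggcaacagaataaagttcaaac

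Of 21 heat-shock genes tested under IAA, 0 were called higher (4.44% of all tested genes) and 12 lower (4.73%), and the list median was -0.84. In Col-0, estradiol raised 10 of them and lowered 0, beside 0.568% and 0.456% of tested genes. In amiR-TOR it raised 4 and lowered 2 (8.99% and 9.9% of tested genes). The medians of these estradiol effects were 0.80 in Col-0 and -0.11 in amiR-TOR. The genotypes already differed without estradiol. There 7 of the 21 were called higher in amiR-TOR than in Col-0 and 0 lower, beside 1813 and 875 of 21290 tested genes. With estradiol 0 were called higher and 10 lower, beside 4150 and 3771. Heat-shock factors bind inverted repeats of GAA in promoters and switch on chaperones that refold or hold damaged proteins.

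Among the factors, HSFA2, an activator that maintains the response, stood at 5.32, 4.41 and 3.58 CPM in Col-0_IAA and 17.8, 24.6 and 22.7 in Col-0_IAA_Es, and at 15.5, 12.03 and 13.9 in amiR-TOR_IAA and 25.99, 19.2 and 21.6 in amiR-TOR_IAA_Es. It rose in both genotypes, from a higher level in amiR-TOR, and the interaction was -1.63 ± 0.25 (adjusted p = 3.9e-04). MBF1C, a coactivator of heat tolerance, went from 30.7, 38.5 and 29.4 to 79.7, 164 and 132 CPM in Col-0 and from 63.1, 41.98 and 42.5 to 55.1, 46.5 and 43.2 in amiR-TOR, an interaction of -1.96 ± 0.29 (adjusted p = 3.9e-04). HSFB2B, a repressor-class factor, had -1.46 ± 0.24 (adjusted p = 6.7e-04). For MBF1C and HSFB2B the Col-0_IAA_Es libraries lay above the other 9.

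Chaperones followed. HSP101, the disaggregase of acquired heat tolerance, went from 14.6, 26.3 and 19.8 to 63.1, 95.8 and 69.8 CPM in Col-0 and from 64.4, 43.4 and 50.6 to 70.9, 66.1 and 95.6 in amiR-TOR. HSP70 (AT3G12580) was at 707, 816 and 625 CPM in Col-0_IAA_Es and 251 to 393 in the other 9 libraries. The interactions were -1.36 ± 0.27 (adjusted p = 0.0042) and -1.07 ± 0.26 (adjusted p = 0.012), with -0.78 ± 0.19 (adjusted p = 0.012) for HSP70-4. The small heat-shock protein HSP17.4 had -2.09 ± 0.51 (adjusted p = 0.013) at levels of 1.29 to 5.17 CPM. Fes1A, an HSP70 cochaperone outside the list, was among the top 15, at 128, 142 and 140.0 CPM in Col-0_IAA_Es and 60.2 to 79.7 in the other 9, an interaction of -1.12 ± 0.15 (adjusted p = 1.0e-04). The HSP20-like AT5G51440 was at 92.03, 139.8 and 119 CPM in Col-0_IAA_Es and 45.6 to 69.3 CPM in the other 9, with -1.50 ± 0.20 (adjusted p = 1.1e-04).

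HSFA1A, HSFA7A, HSFB1, DREB2A (a dehydration and heat factor) and BAG6 (a cochaperone) completed the 12, from -1.57 to -0.73. HSFA1A lost its call in 12 of 20 alternatives, HSFA7A in 11 and HSFB1 in 7. HSP90.1, a chaperone that restrains heat-shock factors, rose in both genotypes, to 125 to 175 CPM in Col-0 and 156 to 239.6 in amiR-TOR, and was not called (0.08 ± 0.36, adjusted p = 0.93). Of the Col-0_IAA_Es libraries, replicates 2 and 3 had the high unmapped shares, and MBF1C was higher in these than in replicate 1. Without the libraries of high unmapped share, 4 of 23 heat-shock genes were called lower and the list median was again -0.84.

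The upstream windows of HSFA2 at chr2:11135374-11135623 (plus strand) and HSP17.4 at chr3:16984868-16985117 (minus strand) are shown as those of called members that hold the heat-shock element, with GAANNTTC in capitals.
HSFA2 upstream: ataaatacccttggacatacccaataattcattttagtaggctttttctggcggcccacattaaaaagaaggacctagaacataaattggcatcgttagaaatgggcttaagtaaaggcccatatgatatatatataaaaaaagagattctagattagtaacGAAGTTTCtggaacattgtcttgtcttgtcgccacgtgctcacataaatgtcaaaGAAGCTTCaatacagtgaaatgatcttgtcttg
HSP17.4 upstream: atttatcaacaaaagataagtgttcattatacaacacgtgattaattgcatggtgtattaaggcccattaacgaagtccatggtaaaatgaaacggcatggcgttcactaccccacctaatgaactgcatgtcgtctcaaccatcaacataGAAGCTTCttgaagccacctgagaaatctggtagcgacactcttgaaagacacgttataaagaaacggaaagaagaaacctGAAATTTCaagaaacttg
GAANNTTC, which reads the same on both strands, was found in the 250 bases before the start of 5 of the 12 called genes, 6 of the 21 tested and 9.38% of all tested genes with a window.

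**Figure D3:**
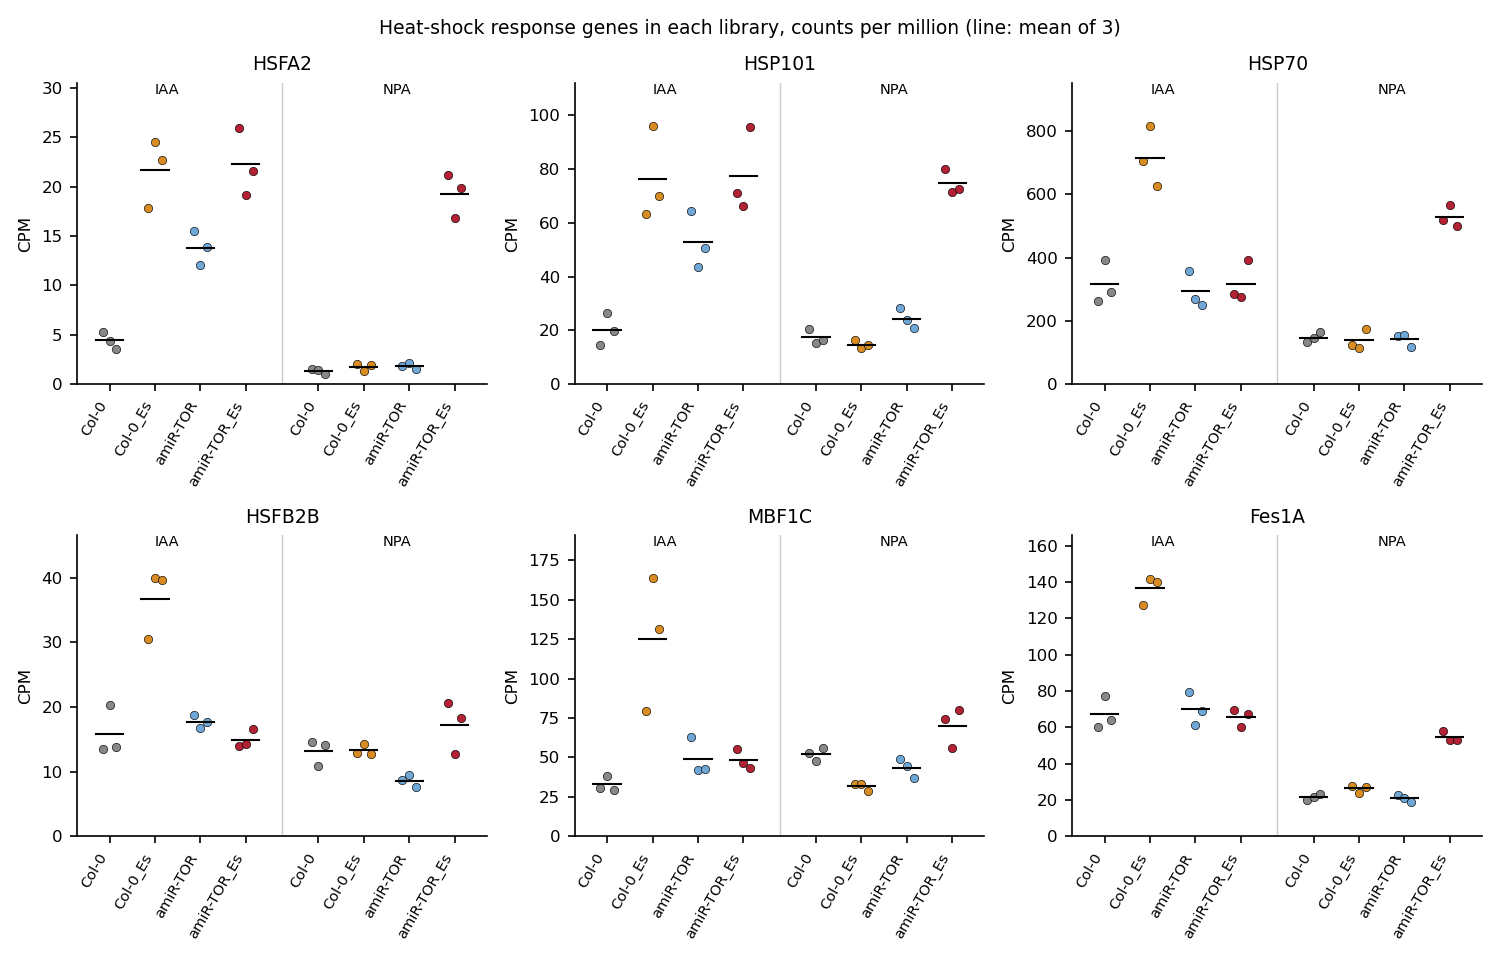
Level of 6 heat-shock response genes in each library, in CPM, with a line at the mean of each group of 3, for the 4 groups with IAA and the 4 with NPA. With IAA the Col-0 libraries with estradiol lie above those without, and with NPA the amiR-TOR libraries with estradiol lie above those without for all 6 genes.

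With NPA in place of IAA, the contrast had the opposite sign for 15 of the 21 heat-shock genes, negative under IAA and positive under NPA. Under NPA 8 of the 21 heat-shock genes were called higher and 0 lower, beside 1.24% and 1.38% of tested genes, with a median of 0.63. HSFA2 stood at 1.56, 1.42 and 0.9896 CPM in Col-0_NPA, 2.02, 1.29 and 1.92 in Col-0_NPA_Es, 1.86, 2.17 and 1.51 in amiR-TOR_NPA and 21.2, 16.8 and 19.9 in amiR-TOR_NPA_Es, an interaction of 2.98 ± 0.32 (adjusted p = 1.9e-05). The difference between the interactions, tested directly over all 8 groups, was called for 8 of the 21, all negative, against 0.362% of all tested genes. It was -4.61 ± 0.41 (adjusted p = 1.5e-06) for HSFA2, -3.41 ± 0.52 (adjusted p = 0.0022) for HSP90.1, -3.38 ± 0.41 (adjusted p = 1.8e-04) for MBF1C, -3.22 ± 0.39 (adjusted p = 1.5e-04) for HSP101 and -3.04 ± 0.36 (adjusted p = 1.0e-04) for HSP70. ROF2, a heat-shock immunophilin, was also among them, at -1.88 ± 0.39 (adjusted p = 0.019).

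Across all genes, 558 were called in the interaction under NPA (2.62%), and 239 were called under both, which is 12.2% of the IAA list and 42.8% of the NPA list. Of the 239, 216 had the same sign and 23 opposite signs. All 23 were called in the test of the difference as well, which called 153 genes (0.719%). The 23 were picked for opposite calls in the interactions compared, so this was largely built in and is no separate support. Named here after their values were seen, the 23 included, besides the genes above, the chaperone genes HSP81-2 (-0.60 under IAA and 0.62 under NPA), cpHsc70-2 (-0.59 and 0.74), Hop3 (-1.07 and 1.02) and the DnaJ genes AT3G14200 (-1.23 and 1.15) and AT2G20560 (-0.89 and 1.72).

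For TOR, RAN1 and the Mog1-like factor the interaction had the same sign in both media. TOR had -1.20 ± 0.21 (adjusted p = 0.0035) under NPA and a difference of -0.35 ± 0.30 (adjusted p = 0.73). RAN1 had 1.85 ± 0.21 (adjusted p = 1.9e-05), the Mog1-like factor 1.95 ± 0.22 (adjusted p = 1.9e-05) and AT5G05840 8.50 ± 0.38 (adjusted p = 4.3e-12). Of the 23 transport genes, 8 were called higher under NPA, beside 1.24% of all tested genes. The difference was called for 0 by edgeR's quasi-likelihood test (0.719% of all tested genes) and 1 by DESeq2. At an unadjusted p under 0.05, 1 passed in edgeR's test. A difference that was not called does not show that the interactions were equal.

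**Figure D4:**
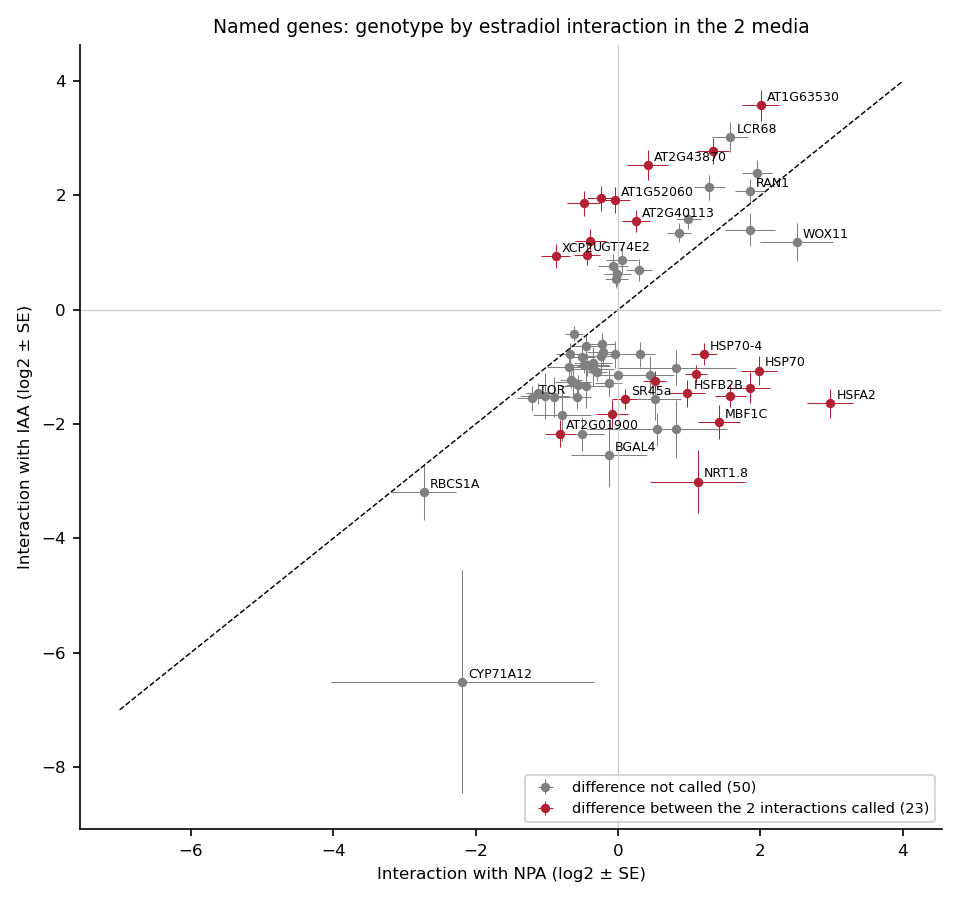
Genotype by estradiol interaction of the 73 named genes other than MIR319a and AT5G05840, under NPA (x axis) and IAA (y axis), in log2 units with standard errors. The dashed line marks equal values, and the 23 genes in red, for which the difference was called, include heat-shock genes in the lower right and XCP2 in the upper left.

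Of 21 sugar starvation genes tested, 0 were called higher (4.44% of all tested genes) and 6 lower (4.73%), and the median was -0.98. The list mixes genes that rise when carbon is short, markers of SnRK1, the kinase that opposes TOR, with others. Among the others are the SnRK1 subunit genes KIN10 and KIN11 and the sucrose synthases SUS1 and SUS4. SUS4, a sucrose synthase, stood at 12.1, 15.98 and 16.6 CPM in Col-0_IAA, 29.3, 28.9 and 33.3 in Col-0_IAA_Es, 5.99, 9.86 and 8.47 in amiR-TOR_IAA and 2.73, 4.64 and 3.43 in amiR-TOR_IAA_Es. Estradiol raised it in Col-0 and lowered it in amiR-TOR, and the interaction was -2.17 ± 0.30 (adjusted p = 1.2e-04).

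BGAL4, a beta-galactosidase, fell to 17.01, 15.69 and 13.2 CPM from 81.1, 25.1 and 79.2 in amiR-TOR, an interaction of -2.55 ± 0.56 (adjusted p = 0.0092). TPS8 and TPS10 (class II trehalose phosphate synthase-like proteins), MCCA (leucine breakdown) and bZIP63 (a target of SnRK1) lay between -1.34 and -0.81. In TPS8 and bZIP63 replicate 3 of amiR-TOR_IAA_Es was the lowest library, at 23.3 and 25.8 CPM, and the same library was lowest for DIN1, DIN10, SEN5 and BCAT2, which were not called. Dark-induced DIN1 had 52.6, 29.3 and 8.31 CPM in amiR-TOR_IAA_Es. Without that replicate, 3 of the 21 were called lower and the median was -0.63. The count was 1 with only the groups compared, 2 with no filter or without the libraries of high unmapped share, 2 without replicate 1 of Col-0_IAA, 2 or 3 of Col-0_IAA_Es or 1 or 3 of amiR-TOR_IAA, and 3 without replicate 3 of Col-0_IAA. MCCA lost its call in 17, TPS10 in 14, TPS8 in 10 and bZIP63 in 9 of 20 alternatives, while SUS4 kept its call in all 20. The subunit genes of SnRK1 itself, KIN10 (0.04 ± 0.10, adjusted p = 0.84) and KIN11 (-0.26 ± 0.17, adjusted p = 0.35), were not called.

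Of 17 tested TOR pathway genes, TOR was the 1 called, beside 9.17% of all tested genes. RAPTOR1B, the substrate-binding partner, had -0.28 ± 0.21 (adjusted p = 0.45), and the substrate kinases S6K1 and S6K2 had -0.12 ± 0.14 (adjusted p = 0.64) and 0.42 ± 0.15 (adjusted p = 0.074). Cytosolic ribosomal protein genes had a median of -0.11 over 123 tested, with 0 called, and nucleolar ribosome biogenesis factors a median of -0.20 over 20 tested, with 0 called. At an unadjusted p under 0.05, 3 of the ribosomal protein genes and 2 of the nucleolar genes passed in edgeR's quasi-likelihood test, and DESeq2 called 0 and 1 of them. The fitted interaction was below 0 for all 20 nucleolar genes and, under NPA, above 0 for 18 of them, with 0 called in either medium. In the comparison of amiR-TOR with Col-0 under IAA, 20 of the 20 nucleolar genes were called lower with estradiol, beside 3771 of all 21290 tested genes. Without estradiol 10 were, beside 875. Of the 123 ribosomal protein genes, 45 were called lower and 3 higher with estradiol, and 6 and 3 without it. Estradiol itself was called lower for 13 of the 123 in amiR-TOR (9.9% of all tested genes) and 0 in Col-0 (0.456%). Its fitted effect was below 0 for 119 and 120 of them. Cell cycle genes had a median of 0.26 over 34 tested, and the 1 call was the CDK inhibitor SMR1 at 0.54 ± 0.17 (adjusted p = 0.043), which 14 of 20 alternatives no longer called, RLE scaling and unstranded counts among them. Of 13 autophagy genes, 1 was called, a share near the 9.17% of all tested genes, and the list median was 0.19. This was ATG5, needed for autophagosome formation, at 0.69 ± 0.19 (adjusted p = 0.024), a call lost in 5 of 20 alternatives.

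The cytokinin genes that were called were lower. Of 17 cytokinin genes tested, 4 were called lower (4.73% of all tested genes) and 0 higher (4.44%), with a median of -0.42. ARR6, a type-A regulator that dampens the signal, stood at 13.7, 11.1 and 11.6 CPM in amiR-TOR_IAA and 4.97, 6.62 and 6.41 in amiR-TOR_IAA_Es, against 7.84 to 8.45 CPM in Col-0_IAA and 7.86 to 11.1 CPM in Col-0_IAA_Es, an interaction of -1.28 ± 0.22 (adjusted p = 0.001). ARR5 had -0.64 ± 0.20, ARR9 -0.42 ± 0.13 and IPT7, a cytokinin synthesis enzyme, -1.85 ± 0.45. ARR5 lost its call in 12 and ARR9 in 14 of 20 alternatives. The count was 2 with no filter, without the libraries of high unmapped share, and without replicate 2 or 3 of Col-0_IAA, 3 of Col-0_IAA_Es, 1 or 3 of amiR-TOR_IAA, or 1, 2 or 3 of amiR-TOR_IAA_Es.

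Nitrate genes gave 4 calls, all lower, of 16 tested, beside 4.73% of all tested genes called lower, with a median of -0.32. NRT1.8, which unloads nitrate from xylem sap, fell in amiR-TOR from 9.38, 4.93 and 6.69 CPM to 0.201, 1.91 and 1.47, while Col-0 had 5.02 to 8.98 CPM without and 7.16 to 11.6 CPM with estradiol. Its interaction was -3.01 ± 0.54 (adjusted p = 0.0017). NLP7, the nitrate-sensing factor, had -0.92 ± 0.27, TGA4 -0.83 ± 0.19 and LBD37, a repressor of nitrate genes, -0.59 ± 0.18. NLP7 and LBD37 each lost the call in 9 of 20 alternatives. The count was 2 without replicate 1 of Col-0_IAA, 2 of Col-0_IAA_Es or 1 of amiR-TOR_IAA_Es, and 1 without the libraries of high unmapped share. Hypoxia genes gave 2 calls of 12, both lower, beside 4.73% of all tested genes called lower, with a median of -0.43. These were HRE1 at -0.78 ± 0.24 and PCO1, an oxygen-sensing oxidase, at -1.53 ± 0.35. HRE1 lost its call in 9 of 20 alternatives, and the list had 1 call without replicate 3 of Col-0_IAA, 2 of Col-0_IAA_Es, 1 or 3 of amiR-TOR_IAA or 3 of amiR-TOR_IAA_Es.

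Indole defence metabolism had a median of -0.88 over 20 tested genes, and 1 was called, the P450 CYP71A12, which acts on indole-3-acetaldoxime, at -6.51 ± 1.95 (adjusted p = 0.046). It stood at 0.829, 0.857 and 0.651 CPM in Col-0_IAA, 1.31, 74.8 and 86.4 in Col-0_IAA_Es, 70.3, 381 and 104 in amiR-TOR_IAA and 119.7, 277 and 32.8 in amiR-TOR_IAA_Es. In Col-0_IAA_Es the high values belonged to the replicates with over 20% unmapped reads, and 15 of 20 alternatives no longer called the gene. Of 22 detoxification genes, with a median of 0.14, 2 were called higher (4.44% of all tested genes) and 0 lower (4.73%). They were GSTU24 at 0.77 ± 0.21 and UGT74E2, an auxin glucosyltransferase, at 0.96 ± 0.18. The share called in either direction is near the 9.17% of all tested genes. The count was 1 without replicate 1 of Col-0_IAA, 1 or 3 of amiR-TOR_IAA or 2 of amiR-TOR_IAA_Es, and 0 without the libraries of high unmapped share, and GSTU24 lost its call in 6 of 20 alternatives. UGT74E2 fell with estradiol in Col-0, from 71.4, 71.3 and 68.3 to 42.8, 25.01 and 32.3 CPM, while amiR-TOR had 87.6, 84.1 and 83.3 CPM without and 78.2, 80.2 and 77.7 with it.

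Xylem markers that were called were higher, a direction called for 4.44% of all tested genes. The xylem proteases XCP1 and XCP2, markers of maturing vessels, had interactions of 1.20 ± 0.22 (adjusted p = 0.0017) and 0.93 ± 0.21 (adjusted p = 0.0074). Of 5 xylem markers, 2 were called, and 4 without replicate 1 of Col-0_IAA, replicate 1 of amiR-TOR_IAA_Es or the libraries of high unmapped share. XCP1 stood at 58.9, 64.2 and 60.9 CPM in Col-0_IAA, 34.6, 51.4 and 60.5 in Col-0_IAA_Es, 44.03, 48.8 and 37.02 in amiR-TOR_IAA and 76.1, 79.6 and 80.8 in amiR-TOR_IAA_Es. A list of secondary wall genes was drawn up after these values were seen. Of 23 tested, 8 were called higher (4.44% of all tested genes) and 0 lower (4.73%), with a median of 0.65. They included the cellulose synthase CESA8 (1.06 ± 0.24), the COBRA-like IRX6 (1.65 ± 0.23), the xylan synthesis gene IRX9 (1.06 ± 0.26) and the acetylation gene ESK1 (1.13 ± 0.18). Under NPA 0 of these 23 were called higher and 1 lower, beside 1.24% and 1.38% of all tested genes. The difference between the media was called for 5, beside 0.719% of all tested genes. They were XCP1 (1.59 ± 0.31), XCP2 (1.81 ± 0.29), IRX6 (1.87 ± 0.32), IRX9 (1.53 ± 0.35) and ESK1 (1.37 ± 0.25). Without the libraries of high unmapped share, 13 of the 23 were called higher and the median was 1.21, and without replicate 1 of Col-0_IAA 14 were called.

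In the endodermis list, CASP1, which builds the Casparian strip, and its regulator MYB36 were the 2 of 23 called, at 0.86 ± 0.23 and 0.62 ± 0.19, and the median was 0.11. That share is near the 9.17% of all tested genes. MYB36 lost its call in 13 of 20 alternatives. The list had 0 calls without replicate 3 of amiR-TOR_IAA or without the libraries of high unmapped share, and 1 with RLE scaling, with no filter and without replicate 1 or 2 of Col-0_IAA, 1 or 2 of Col-0_IAA_Es, 2 of amiR-TOR_IAA, or 1 or 2 of amiR-TOR_IAA_Es. Tissue markers were checked beside these groups. The summed level of 5 xylem markers was 232 to 265 CPM in amiR-TOR_IAA_Es and 123 to 229 CPM in the other groups. In the pericycle and stele list, the cytokinin receptor WOL was the 1 of 5 called, at -0.78 ± 0.20, a call lost without the libraries of high unmapped share, and no marker of root hairs (median 0.08 over 5), phloem (0.41 over 5) or root cap (-0.06 over 5) was called. Summed root hair markers were 11.7 to 31.8 CPM in Col-0 and 61.5 to 106 CPM in amiR-TOR, with and without estradiol. In pooled roots, fewer cells of a type and less RNA per cell cannot be told apart.

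Leaf and photosynthesis markers, which a root sample should carry only at a low level, summed to 26.8 to 38.6 CPM in amiR-TOR_IAA_Es and to 39.1 to 133 CPM in the other groups. Of the 8, 2 were called lower (4.73% of all tested genes), with a list median of -3.00. Estradiol was called lower for 7 of the 8 in amiR-TOR (9.9% of all tested genes) and for 0 in Col-0 (0.456%). Without estradiol, all 8 were fitted higher in amiR-TOR than in Col-0, with a median of 1.48. Of these, 1 was called, beside 1813 of 21290 tested genes called higher. No leaf marker was at 0 in all 12 libraries. RBCS1A, the small subunit of Rubisco, fell from 39.1, 33.2 and 31.8 CPM to 3.69, 2.63 and 2.91 in amiR-TOR and stood at 18.6 to 26.8 CPM in Col-0_IAA and 12.2 to 22.8 CPM in Col-0_IAA_Es, an interaction of -3.19 ± 0.50 (adjusted p = 8.0e-04). PSAD1, of photosystem I, had -1.51 ± 0.40 (adjusted p = 0.022), a call lost in 5 of 20 alternatives. Replicates 1 and 3 of amiR-TOR_IAA were the highest for LHCB1.1, at 6.23, 0 and 8.37 CPM in the 3 replicates. The part of these differing tissue markers in the other results was not tested.

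**Figure D5:**
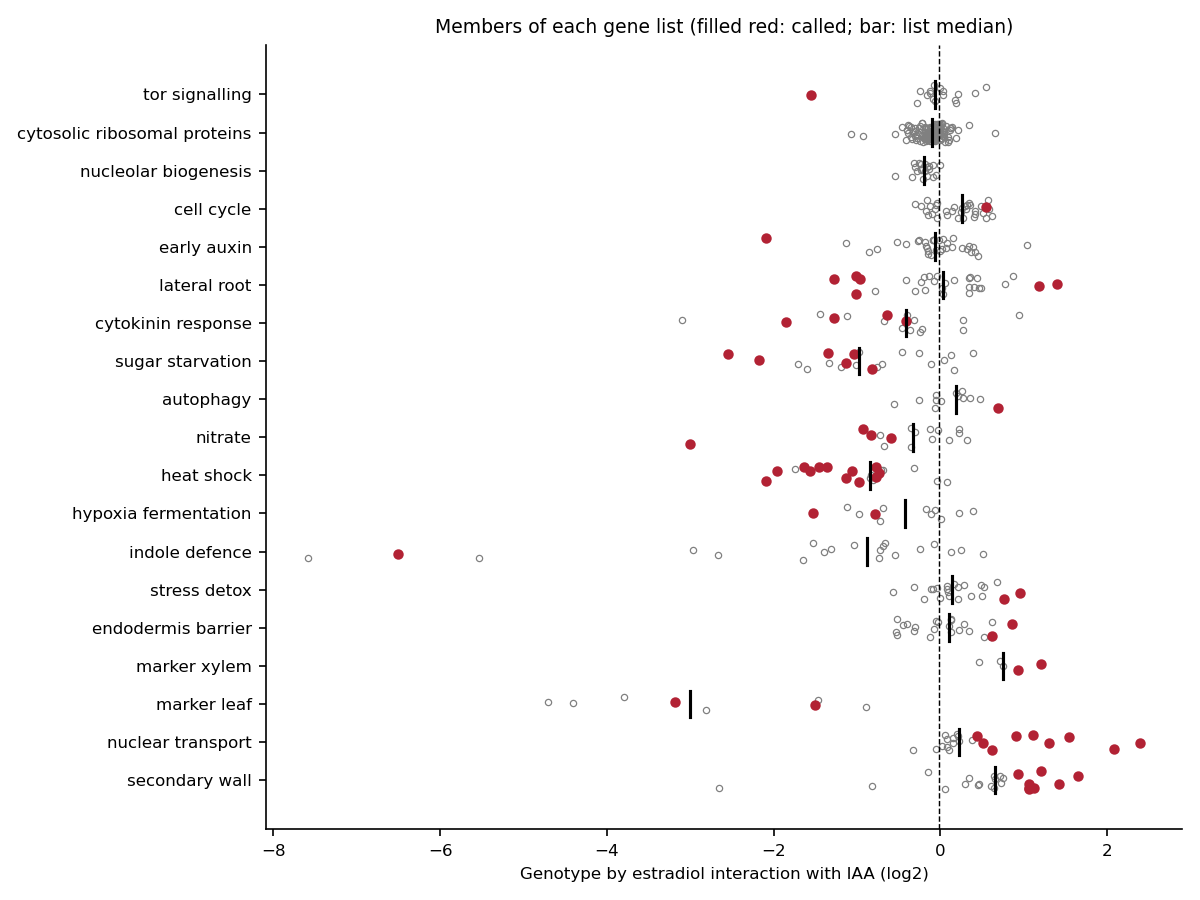
Interaction under IAA (x axis, log2) of every tested member of 19 gene lists, 1 row per list, with called members filled in red, the list median as a bar and the median of all tested genes as a dashed line. Heat-shock, sugar starvation and leaf marker genes lie mostly left of the line, and nuclear transport, secondary wall and xylem genes mostly right; the last 2 rows were drawn up after values were seen.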

How the data were processed

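RNA-seq counts per gene were deposited by the authors, 1 table a library, with 3 count columns by strand. The submitters' processing notes name STAR 2.5.2b, DESeq2 and the build TAIR10 without roles. The reverse-strand counts were used, and the 4 summary lines a table (unmapped, multimapping and the like) were left out of library sizes and tests. Of 32833 loci, 21290 passed filterByExpr in edgeR 4.0.16 (R 4.3.3), and 21205 of these were named from the RefSeq gene table of TAIR10.1, which also gave sequences and products.

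The quasi-likelihood test (robust, TMM, common biological coefficient of variation 0.143) was fitted to all 24 libraries with 8 group means, so that the groups share 1 estimate of the spread, and p-values were adjusted by Benjamini-Hochberg over all tested genes. Standard errors are the size of the log2 change over the square root of F. CPM uses TMM-scaled library sizes, and depth limits the precision of low genes. On simulated counts the interaction test recovered 57% of genes changed by 1 and 99% of those changed by 2 on the log2 scale. The simulation gave every gene 1 common spread, held no deviating libraries and changed only genes averaging over 1 CPM. Recovery in the real libraries may therefore differ.

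Named genes are TOR, the 15 smallest p in each direction among called genes with a mean of at least 1 CPM in the 12 IAA libraries and the same sign in each same-numbered set, and every called member of the lists, 75 in all. The nuclear transport and secondary wall lists are not among these lists, and they and other named genes were chosen after their values were seen. Members and lists were chosen with earlier results of these data known. Replicate numbers were not taken as pairing the libraries. Alternatives were RLE scaling, no filter, unstranded counts, only the groups compared, DESeq2 1.42.0, a replicate block, the unmapped share as covariate or as reason to leave out libraries, a fold threshold, and each library left out. In the labels, a passage on another inducer and other harvest times was not used.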

Additional observations from a re-analysis of the deposited data

Results flagged for a closer look

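For 23 of the 75 genes named by rule, the genotype by estradiol interaction under IAA differed from that under NPA in a test of the difference itself over all 8 groups (edgeR's quasi-likelihood test, adjusted p under 0.05). Over all tested genes, 0.719% were called in this test. The 75 were all called in the interaction under IAA, which enters the difference, so selection raises their share. Values are the interaction under IAA minus that under NPA, in log2 units.

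Most of the negative differences belonged to heat-shock response genes. HSFA2 differed by -4.61, MBF1C by -3.38, HSP101 by -3.22, HSP70 by -3.04, HSFB2B by -2.43 and HSP70-4 by -1.98. The cochaperone Fes1A differed by -2.22, and the HSP20-like genes AT5G51440 and AT2G19310 by -3.08 and -1.76. The splicing gene SR45a differed by -1.65. Outside this group, the nitrate transporter NRT1.8 differed by -4.13, the DUF584 gene AT1G11700 by -1.74 and the DNase I-like AT2G01900 by -1.35.

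The positive differences included the xylem proteases XCP1 at 1.59 and XCP2 at 1.81, and the glucosyltransferase UGT74E2 at 1.40. The galactosyltransferase family gene AT5G57500 differed by 2.34, CYP705A30 by 2.19, the pectin lyase-like AT2G43870 by 2.12 and the lectin family gene AT1G52060 by 1.96. AT1G63530 differed by 1.57, AT1G48750 by 1.45 and AT2G40113 by 1.305. CYP705A30 fell with estradiol in Col-0 under IAA and stood at 11.8 to 12.8 CPM in Col-0_NPA and 18.6 to 21.1 in Col-0_NPA_Es.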

How the results depend on the processing

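The interaction under IAA called 1952 genes, 1206 with only the groups compared, 1071 without the libraries of high unmapped share, 744 with a log2 change of at least 1 and 1135 to 1956 with 1 library left out. The estradiol effect in Col-0 called 218 genes, 574 by DESeq2, 108 with the fold threshold, 68 with only the groups compared, 3 without libraries of high unmapped share and 58 to 746 with 1 library left out. The estradiol effect in amiR-TOR called 4021, 918 with the fold threshold and 2370 to 3859 with 1 library left out. The genotype difference called 7921 genes with estradiol (1903 with the fold threshold, 6511 to 7193 with 1 library left out) and 2688 without (908 and 1494 to 2577). The interaction under NPA called 558 genes, 1079 by DESeq2, 274 with the fold threshold, 878 without libraries of high unmapped share and 294 to 634 with 1 library left out. The difference between media called 153, 373 by DESeq2 and 89 to 238 with 1 library left out. The cause of these shifts was not tested, except that the fold threshold can only lower a count. Of the 75 genes named by rule, which leave out the nuclear transport and secondary wall lists, 43 kept their call in every alternative, 32 lost it in at least 1, and 0 changed sign. DESeq2 lost 0, RLE scaling 3, the replicate block 5 (CYP71A12, LBD33, MCCA, MYB36 and TPS10) and leaving out libraries of high unmapped share 29. Deviations of same-numbered libraries correlated at -0.23 to 0.24 over 18 pairs, 7 of them over 0.1, and within replicate 2 the libraries of Col-0_IAA_Es, amiR-TOR_IAA and amiR-TOR_IAA_Es correlated at 0.21 to 0.24. These correlations do not settle whether same-numbered libraries share an effect, and the labels do not say what the numbers mark. The numbers were therefore not taken as pairing the libraries in the main fit. The sign rule for named genes did use same-numbered sets. With the replicate number as a block, 1752 genes were called in the interaction under IAA.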
